A study of Oryza sativa with 2 samples.

Results

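Aquaporins are membrane channels of the major intrinsic protein family through which water, and for some members small solutes such as silicic or boric acid, pass in and out of cells and vacuoles. In plants they fall into plasma membrane intrinsic proteins (PIP), tonoplast intrinsic proteins (TIP) of the vacuolar membrane, nodulin 26-like intrinsic proteins (NIP), several of which carry metalloids, and small basic intrinsic proteins (SIP), which in Arabidopsis lie in the endoplasmic reticulum. In growing tissue, expansion of a cell draws on water entry across both the plasma membrane and the tonoplast. Members were taken by name: a probe set was included when it was assigned to a single gene whose symbol or synonym was a PIP, TIP, NIP or SIP number, or the silicon transporter names Lsi1 or Lsi6. The gene table held 29 such genes, and 25 of them had a probe set of their own, out of 17905 genes with one on the array. These 25 genes were read by 31 probe sets, 13 for 10 PIP genes, 11 for 8 TIP genes, 5 for 5 NIP genes and 2 for 2 SIP genes. The 4 others, PIP2-3, NIP1-2, NIP3-3 and TIP5;1, were not analysed here. Names are written with a hyphen, as in PIP1-3 for OsPIP1;3, where the gene table gives both forms.

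The tissue was the developing collar of rice, the lamina joint where the blade of a leaf meets its sheath, taken at the heading stage from field-grown plants. One array (GeneChip Rice Genome Array) was hybridised with RNA of wild type collars and one with RNA of collars from transgenic plants that transcribe the whole OsLIC cDNA in reverse, as antisense RNA, from the maize ubiquitin1 promoter, which is active in most tissues. Each RNA was a pool of 30 collars, a single one per plant, and the sample labels name line 2 as the source of the antisense pool, while the design text of the series speaks of both lines. The transgenic condition is in either case 1 pool on 1 array. With 1 array per condition there was no spread between samples, no significance test was made, and every ratio below describes these 2 arrays only. OsLIC itself, the gene of a CCCH zinc finger protein that the antisense RNA targets, had a signal of 219.8 on the wild type array and 2069 on the antisense array (log2 ratio 3.23). The signal of its probe set was therefore higher, not lower, under the antisense label, and the direction of every ratio is that of the labels. By immunoblot of young stems, the study reports that OsLIC protein was suppressed in its antisense lines. What the probes of OsLIC read, its own mRNA or the antisense RNA of the transgene, was not tested, nor was whether the labels of the arrays were exchanged, which would turn every direction given here.

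Signals are linear values of the Affymetrix software GCOS in arbitrary units. A probe set counted as measured when it reached 100 on the brighter array, and ratios were computed with a floor of 20 under both signals. A difference was counted from 2-fold, a log2 ratio of 1 or -1. Since RNA was pooled from whole collars, fewer cells of a type and less RNA per cell cannot be told apart. Probe sets differ in how well they bind their targets, so the signals below give the range within each subfamily and are not an order of transcript amounts between genes.

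PIP and TIP genes had the highest aquaporin signals in the collar, and each subfamily except SIP also held genes under the minimum of 100. Of the 31 probe sets, 24 (20 genes) reached a signal of 100 on at least 1 array, 15 reached 1000 and 10 reached 5000. The 10 of 5000 or more were 6 PIP and 4 TIP probe sets. No NIP or SIP probe set reached that level. On the wild type array the signals ran from 44.5 to 19748 for PIP, from 7.52 to 24785 for TIP, from 2.27 to 2796 for NIP and from 543.9 to 3061 for SIP. On the antisense array they ran from 6.41 to 15637, from 3.38 to 19791, from 9.34 to 2615 and from 358.3 to 3471. Both arrays thus showed the same picture of a few very bright PIP and TIP genes beside weak ones. The summed signal of all 31 probe sets, 130807 and 120795, was set mainly by these bright genes.

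**Figure D1:**
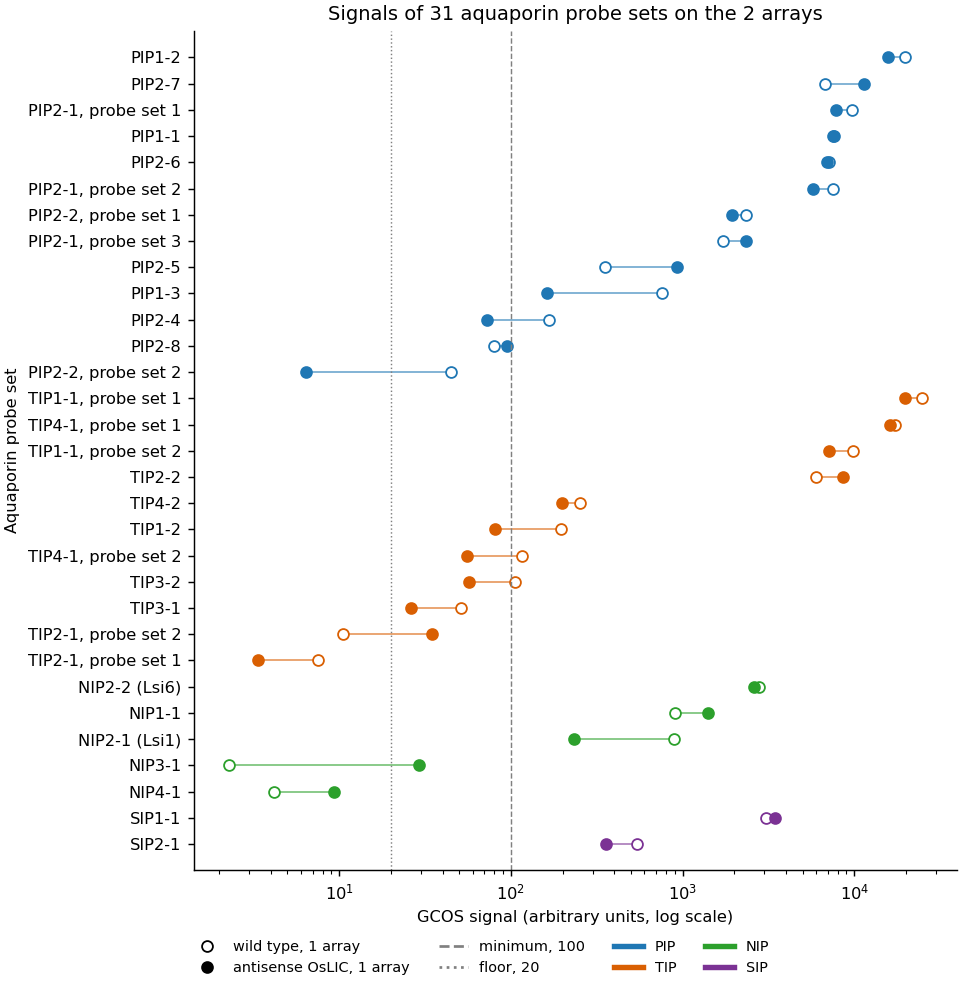
Signal of each of the 31 aquaporin probe sets (horizontal axis, arbitrary units, log scale) on the wild type array (open circles) and the antisense OsLIC array (filled circles), grouped and coloured by subfamily and ordered by mean log2 signal. Each circle is 1 array, the dashed line is the minimum of 100 and the dotted line the floor of 20. Most bright probe sets have nearly touching circles. Among those that reached 100, PIP1-3, PIP2-4, TIP1-2, NIP2-1 (Lsi1) and the dim TIP4-1 probe set lie 2-fold or more to the left on the antisense array. PIP2-5 lies as far to the right. Some probe sets under 100 on both arrays shift as widely, such as NIP3-1 to the right and the dim PIP2-2 probe set to the left.

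Between the arrays, 1 of the 24 measured aquaporin probe sets was higher on the antisense array by 2-fold or more (4.17%) and 5 were lower by as much (20.8%). Among all 26697 measured probe sets of the array the shares were 5.28% higher and 4.64% lower. The higher one was PIP2-5, and the lower ones were PIP1-3, NIP2-1 (Lsi1), TIP1-2, PIP2-4 and the dimmer of the 2 probe sets of TIP4-1. Taking each gene by its brightest measured probe set, 1 of 20 aquaporin genes was higher and 4 were lower, where 3.73% and 2.85% of 14742 genes were. The median log2 ratio of the 24 probe sets was -0.32, beside -0.01 over all probe sets, and 18 of the 24 (75.0%) lay below 0, beside 51.5%. These counts hold a bias of selection: 4 of the 24, TIP3-2 and 3 of the 5 lower ones (PIP2-4, TIP1-2 and the dim TIP4-1 probe set), reached the minimum on the wild type array only. No aquaporin probe set reached it on the antisense array only. Of all 26697 measured probe sets, 1657 reached it on the wild type array only and 1796 on the antisense array only. Of the 20 probe sets that reached 100 on both arrays, 1 was higher and 2 were lower, PIP1-3 and NIP2-1, beside 2.24% and 1.96% of 23244 probe sets. The median log2 ratio of these 20 was -0.19, and it was -0.10 over the 19 that reached 500 on the brighter array.

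**Figure D2:**
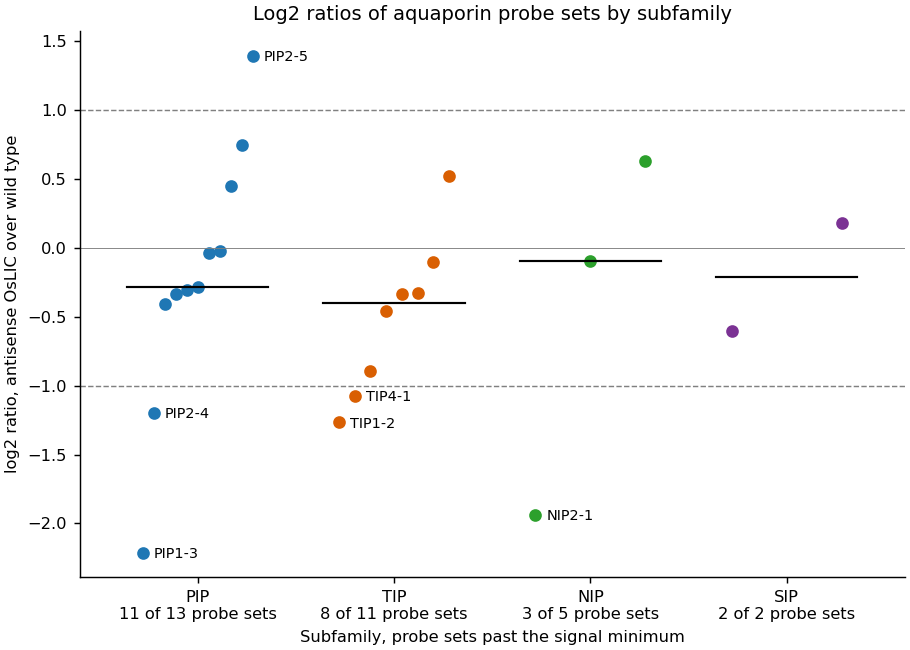
Log2 ratio of signal, antisense OsLIC over wild type (vertical axis), of the 24 aquaporin probe sets past the signal minimum, by subfamily (11 PIP, 8 TIP, 3 NIP and 2 SIP). Each point is 1 probe set on 1 pair of arrays, the black bars are subfamily medians and the dashed lines mark 2-fold; PIP2-5 is the one point above the upper line, and 5 points lie under the lower one.

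The PIP1 proteins form one branch of the plasma membrane aquaporins and in maize reach the plasma membrane together with PIP2 partners. PIP1-2 had signals of 19748 on the wild type array and 15637 on the antisense array (log2 ratio -0.34), and PIP1-1, also known as RWC1, had 7579 and 7480 (log2 ratio -0.02). Neither was near a 2-fold difference. PIP1-3, also known as RWC3, had 754.2 and 162.9, which was 4.63-fold lower under the antisense label (log2 ratio -2.21). This was the aquaporin probe set with the largest ratio in either direction among the 24, and the gene was measured on both arrays. The PIP1 genes therefore held a pair of bright members that differed little between the arrays and a weaker one that was much lower on the antisense array.

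The PIP2 proteins are the branch with the stronger water channel activity in plant aquaporin assays. PIP2-6 had signals of 7134 and 6949 (log2 ratio -0.04). PIP2-7 had 6734 and 11326, which was 1.68-fold higher under the antisense label (log2 ratio 0.75) and the highest ratio among the aquaporin probe sets of 1000 or more. PIP2-2 had 2358 and 1934 by the probe set of accession AK120386 with the suffix _s_at (log2 ratio -0.29), a suffix that marks probes shared by several transcripts. Its other probe set was dim, at 44.5 and 6.41, and was not used. PIP2-1 was read by 3 probe sets that did not share a direction: that of AK103938 with the suffix _a_at had 9702 and 7842 (log2 ratio -0.31), that of the same accession with the suffix _x_at had 7571 and 5723 (-0.40), and that of AK105524 had 1723 and 2349 (0.45). No direction between the arrays can be given for this gene. PIP2-8, at 80.3 and 95.5, stayed under the minimum on both arrays.

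The 2 PIP2 genes past 2-fold went opposite ways. PIP2-5 had a signal of 353.9 on the wild type array and 929.2 on the antisense array, 2.63-fold higher (log2 ratio 1.39). PIP2-4 had 166.7 and 72.7, 2.29-fold lower (log2 ratio -1.20), with its lower signal under the minimum. Both are known in rice mainly from roots. In the gene order of the reference annotation PIP2-4, PIP2-5 and PIP2-1 lie close together on chromosome 7, with 1 gene between the first pair and none between PIP2-5 and PIP2-1. Genes that neighbour each other thus had a lower, a higher and a mixed reading. A further probe set, of accession AB029446, is assigned to both PIP2-1 and PIP2-5 and so is no member. It had 2651 and 1873 (log2 ratio -0.50), the opposite direction from the probe set of PIP2-5 alone and the direction of 2 of the 3 probe sets of PIP2-1.

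Among the tonoplast aquaporins, TIP1-1, a gamma-TIP, had the highest signal of the family, 24785 and 19791 by its brighter probe set (log2 ratio -0.32). Its other probe set had 9785 and 7132 (log2 ratio -0.46), so both read slightly lower on the antisense array. They are of the same accession, the brighter with the suffix _a_at and the other with _x_at, so their agreement adds little. TIP4-1 had 17312 and 16136 by its bright probe set, of AK072531 (log2 ratio -0.10). Its dim one, of AK119476, had 116.5 and 55.5, 2.10-fold lower (log2 ratio -1.07). The probe sets of TIP4-1 differed by 0.97 on the log2 scale, and the bright one was within 2-fold, so the gene was not counted as lower by its brightest probe set. TIP2-2 had 6026 and 8653 (log2 ratio 0.52), the single measured TIP probe set that was higher under the antisense label, by a probe set that can bind related transcripts.

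The weaker TIP genes gave mostly dim readings. TIP1-2 had signals of 195.5 and 81.2, 2.41-fold lower (log2 ratio -1.27). TIP4-2 had 251.3 and 199.0 (log2 ratio -0.34), by a probe set that can bind related transcripts. TIP3-2, whose Arabidopsis relatives belong to seed vacuoles, had 105.8 and 57.0 (log2 ratio -0.89). TIP1-2 and TIP3-2 reached the minimum on the wild type array only, a selection that favours a lower antisense reading, while TIP4-2 was measured on both arrays and was within 2-fold. TIP3-1 had 51.3 and 26.2, also dim on both arrays. TIP2-1, known in rice mainly from roots, was at 7.52 and 3.38 by one probe set and at 10.5 and 34.8 by the other, which is background. Over the 8 measured TIP probe sets the median log2 ratio was -0.40, but 3 of the 8 were past the minimum on the wild type array only, and over the 5 measured on both arrays it was -0.32. Over the 11 PIP probe sets it was -0.29, over the 10 measured on both arrays -0.16, and over the 7 without the suffix _x_at, _s_at or _a_at -0.04.

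The NIP subfamily held the silicon channels. Lsi1 (NIP2-1) takes up silicic acid in rice roots, and Lsi6 (NIP2-2) unloads it from the xylem in leaf sheaths, blades and nodes. Lsi6 had signals of 2796 and 2615 (log2 ratio -0.10), nearly equal, by a probe set that can bind related transcripts. Lsi1 had 897.0 and 234.0, 3.83-fold lower under the antisense label (log2 ratio -1.94), with both signals above the minimum. The pair thus parted, the channel known from shoots at about the same level and the one known from roots much lower on the antisense array. Lsi2, the efflux transporter that acts with Lsi1 in roots and is no aquaporin, was at background, with 2.57 and 5.53.

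NIP1-1 had 907.2 and 1404 (log2 ratio 0.63). NIP3-1, a boron channel also named DTE1, was at 2.27 and 29.2, and NIP4-1 at 4.16 and 9.34, both under the minimum on both arrays. The 3 measured NIP probe sets had a median log2 ratio of -0.10. The SIP genes were both measured: SIP1-1 had 3061 and 3471 (log2 ratio 0.18) and SIP2-1 had 543.9 and 358.3 (log2 ratio -0.60). They differed in sign, and neither reached 2-fold. With 3 and 2 measured probe sets, the medians of NIP and SIP (-0.21) say little beside the values of the single genes.

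None of the 15 aquaporin probe sets that reached 1000 was past 2-fold, with log2 ratios from -0.46 (TIP1-1) to 0.75 (PIP2-7) and a median of -0.10, where 4.18% of all 10312 probe sets of that brightness were past 2-fold, a share at which a count of 0 in 15 sets nothing apart. Bright members that were furthest from 0 were PIP2-7, NIP1-1 (0.63) and TIP2-2 (0.52). The 6 aquaporin probe sets past 2-fold were among the 9 that reached 100 but not 1000, a band in which 13.5% of all 16385 probe sets were past 2-fold. Nothing is read from this count, since 3 of the 6 passed the minimum on the wild type array only and the limit of 1000 was chosen after the values were seen. The median absolute log2 ratio of the 24 was 0.45, beside 0.28 for all measured probe sets, and 54.2% lay within 0.5 of 0, beside 71.9%. The 24 include the 4 that reached the minimum on the wild type array only, so nothing is read from these values either.

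**Figure D3:**
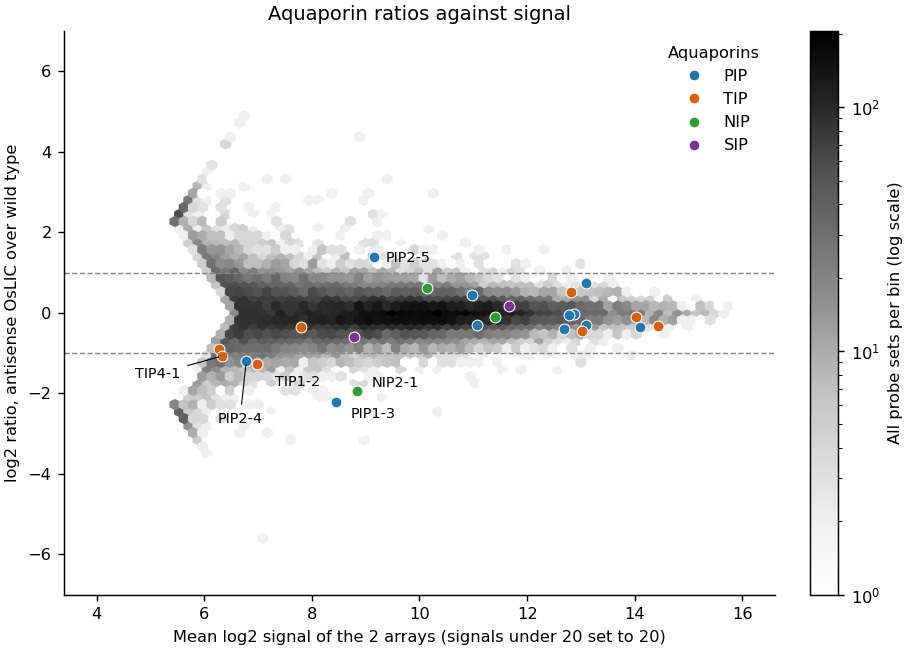
Log2 ratio, antisense OsLIC over wild type (vertical axis), against the mean log2 signal of the 2 arrays (horizontal axis), with the 26697 measured probe sets as grey bins and the 24 aquaporin probe sets as coloured points. The labelled points are those past 2-fold (dashed lines); they lie in the left part of the plot, and the points above a mean log2 signal of 10 stay between the lines.

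Other transport genes, which bear on the solute content of a cell, were read on the same arrays for comparison. They were taken by name as potassium transporters (HAK, AKT, TPK), sodium transporters (HKT), Lsi2 and proton pumps (a letter A with a number). This gave 29 genes with 38 probe sets, of which 29 were measured. The letter pattern took in the names a7 and OSA15, whose products the annotation does not describe. Of the 29 measured probe sets, 2 were higher on the antisense array by 2-fold or more and none was lower by as much, with a median log2 ratio of 0.09. The share higher, 6.90%, was near the 5.28% of all measured probe sets. The share lower over all of them was 4.64%, at which a count of 0 in 29 sets nothing apart. Both higher ones read the same gene, HAK1, a high-affinity potassium transporter of roots, with signals of 553.5 and 1362 by one (log2 ratio 1.30) and of 1034 and 3240 by the other (1.65). The 2 measured probe sets of HAK1 thus had the same direction. HAK27 had 406.5 and 211.6 (log2 ratio -0.94), just inside the limit, and HAK10 had log2 ratios of -0.79 and -0.73 by its probe sets.

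Markers of the tissue and of others it might hold were looked up as well. LG1, a gene required to form ligule and lamina joint, had signals of 493.5 and 641.3 (log2 ratio 0.38). The other measured members of the lamina joint list beside OsLIC were BU1, at 463.3 and 450.3 (-0.04), and IBH1, at 175.1 and 158.2 (-0.15). Of the list for photosynthesis in the leaf blade, 10 of 12 probe sets were measured, 5 with a ratio below 0 and 5 above. Those lower on the antisense array by 2-fold or more (2 of 10, beside 4.64% of all measured probe sets) read light-harvesting proteins under the names LHCP and CAB2R. They had 7283 and 1445 (log2 ratio -2.33) for LHCP, and 12945 and 5531 (-1.23) for CAB2R. Another probe set named CAB2R had 25685 and 12844 (log2 ratio -0.9998), just inside the limit. The brightest RBCS probe set had 14898 and 25699 (log2 ratio 0.79), and the other measured ones of that name had log2 ratios of 0.60 and -0.39. The summed signal of this list was 79551 and 66117. Of 12 floral MADS-box probe sets 3 were measured. A bright MADS2 probe set had 9773 and 6057 (log2 ratio -0.69), and MADS16 had 1001 and 1179 (0.24). The 1 of 3 that was lower by 2-fold or more (beside 4.64% of all measured probe sets) read another gene that also carries the name MADS2. It had 155.1 and 30.5 and reached the minimum on the wild type array only. Which of these 2 genes is the floral MADS2 was not settled here. The summed signal of this list, 11207 and 7496, was set mainly by the bright MADS2 probe set. The other 9, MADS1, MADS6 and MADS13 among them, were under the minimum on both arrays. Of the root list only Lsi2 had a probe set, at background. The part of these differences in the aquaporin ratios was not tested.

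The 6 ratios past 2-fold were computed again under other settings. Median centring, quantile normalization and an intensity-dependent loess left each of the 24 aquaporin probe sets on its side of 2-fold and with its sign. With 50 added to both signals instead of the floor, PIP1-3 (-1.92), NIP2-1 (-1.74) and PIP2-5 (1.28) were still past 2-fold, while TIP1-2 (-0.90), PIP2-4 (-0.82) and the dim probe set of TIP4-1 (-0.66) were not.

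**Figure D4:**
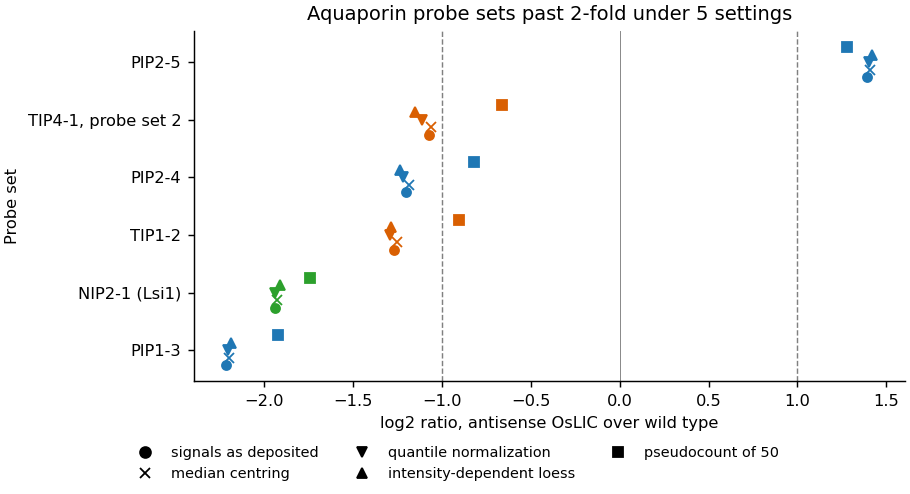
Log2 ratio, antisense OsLIC over wild type (horizontal axis), of the 6 aquaporin probe sets past 2-fold (rows) with the signals as deposited and under 4 other settings (symbols), coloured by subfamily. Dashed lines mark 2-fold. The squares, with 50 added to both signals, fall inside the lines for TIP1-2, PIP2-4 and the dim TIP4-1 probe set.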

How the data were processed

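One array per condition was analysed, each of RNA from 30 pooled collars. The authors used GCOS (version not given in the sources used here) and deposited linear intensity values, 1 a probe set, scaled to an overall intensity of 500 on each array. The detection calls are not used here. The median signal was 67.2 on the wild type array and 69.7 on the antisense array. The number of arrays limits the precision.

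Gene identifiers from the platform annotation were looked up in the RefSeq gene table, which supplied the synonyms. All 22436 probe sets with 1 gene matched, while 95 with several genes and 34850 with none could hold no member but stayed in the shares given for all probe sets. The gene table's assembly is not that of the array design, so it was used for names and gene order only. Control and reporter probe sets (187) were dropped. Signals under 20 were set to 20, log2 ratios were taken without further normalization, probe sets of 100 or more on the brighter array were used, and 2-fold was the limit, as in the methods of the study.

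Every probe set past 2-fold, the brightest and the most different ones of each subfamily, Lsi1, Lsi6 and genes with several probe sets were named by rule, which took in nearly all members. The members, the transport list and the markers were chosen with earlier results of these data known. Alternatives were 3 normalizations, a pseudocount of 50, other signal minimums (none, 50, 200, 500, or 100 on both arrays), probe sets without the suffix _x_at, _s_at or _a_at, 1 value a gene by brightest probe set or mean, and a 3-fold limit. A shift of a median or of a single ratio by 0.5 on the log2 scale counted as moved. The code (Python 3.11.15, pandas 2.3.3, numpy 2.4.6, statsmodels 0.14.6) was tested on simulated data.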

Additional observations from a re-analysis of the deposited data

How the results depend on the processing

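No paired analysis was possible because each condition has 1 array. The count of aquaporin probe sets at least 2-fold higher, 1, was 0 with a 3-fold limit. The count at least 2-fold lower, 5 of 24, was 2 of 24 with a pseudocount of 50 and with a 3-fold limit. It was 2 of 20 with a signal minimum of 200 or with 100 on both arrays, and 2 of 19 with a minimum of 500. Of all probe sets, 2.76% were lower at the minimum of 200, 2.01% at 500 and 1.96% with 100 on both arrays. With the pseudocount 700 of 26697 were lower, and the share at the 3-fold limit was not computed. The 2 were PIP1-3 and NIP2-1 (Lsi1) in each case. Without probe sets of the suffix _x_at, _s_at or _a_at the median log2 ratio moved from -0.40 to -0.98 for TIP (4 probe sets) and from -0.10 to -0.65 for NIP (2 probe sets). The TIP probe sets left were the bright one of TIP4-1 and those of TIP1-2, TIP3-2 and the dim TIP4-1. All but the bright one reached the minimum on the wild type array only. The NIP probe sets left were NIP1-1 (0.63) and NIP2-1 (-1.94). The median of all measured aquaporin probe sets, -0.32, ran from -0.47 to -0.10 and that of PIP, -0.29, from -0.29 to -0.04. In all, 78 of 86 values of counts and medians stayed within the limits set, 1.5 times for a count and 0.5 for a median, and the 96 ratios of single probe sets under other scalings moved by less than 0.5 with no change of sign. Dim signals limit the ratios of TIP1-2, PIP2-4, TIP3-2 and the dim TIP4-1 probe set.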
